A study of Mus musculus with 12 samples.

Results

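The BCL2 family decides whether the outer mitochondrial membrane stays intact, and 8 of its genes were followed here in mouse hearts. They were taken by gene symbol from a table of 55885 genes: Bcl2, Bcl2l1 and Mcl1, which protect cells, and Bak1, Bad, Bcl2l11, Bid and Pmaip1, which promote death. RNA-seq values were given for 12 hearts of male C57BL/6 mice (C57BL/6J in the study's methods) that were 8 weeks old at the start, 3 hearts in each of 4 groups. The Saline group was wild type without the drug. The CDDP group was wild type and received cisplatin, a platinum compound that crosslinks DNA and is used against tumours, at 6 mg/kg into the peritoneum on days 1, 8 and 15. The STING-/- group carried the Tmem173-/- genotype without the drug, and the STING-/-+CDDP group had that genotype and the same cisplatin course. The labels call the control hearts of both genotypes untreated, the design names a saline group for the wild type alone, and whether STING-/- controls received the vehicle is not stated. Hearts were collected on day 22. STING, the product of Tmem173 (Sting1), is an adaptor that passes on the signal of DNA in the cytosol, and the comparison of genotypes asked whether the cardiac response to cisplatin differs without it. The labels give neither the deleted part of the gene nor the mouse behind each heart. The p-values rest on the spread between hearts within groups, pooled over all 4 groups of 3, and this spread may in part be technical.

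The values are TPM, the usual unit of transcript abundance, in which reads are divided by transcript length and scaled to the same total in every heart, so levels of different genes can be compared. They keep no sequencing depth, and counting error is unknown. Each heart had 19680 to 21024 genes above 0. Sting1 itself was at 6.5 to 12.28 TPM in Saline, 5.62 to 22.11 TPM in CDDP, 2.87 to 5.96 TPM in STING-/- and 3.37 to 4.67 TPM in STING-/-+CDDP hearts, so transcript remained in every heart labelled STING-/-. The cardiomyocyte markers Myh6, Tnnt2, Tnni3, Actc1, Myl2 and Ryr2 summed to 21570 to 44510 TPM over the 12 hearts, so the defining genes of the labelled tissue were present. Marker lists of other cell types stood apart in some hearts. The 6 neutrophil markers summed to 1096 TPM in CDDP heart 1 and to 4.6 to 89.7 TPM in the other 11 hearts. The 4 atrial markers summed to 38940 TPM in Saline heart 2 against 310.2 and 338.7 TPM in the other Saline hearts.

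BCL2, BCL-XL (from Bcl2l1) and MCL1 hold the pore-forming proteins BAK (from Bak1) and BAX in check. The BH3-only proteins BIM (from Bcl2l11), BID, BAD and NOXA (from Pmaip1) carry stress signals: they bind the protective proteins or activate the pore formers directly. Once BAK or BAX opens the outer membrane, cytochrome c leaves the mitochondrion, the apoptosome forms with caspase-9, and further caspases are activated. Much of this control acts on the proteins, by phosphorylation, cleavage and turnover, which RNA does not show. Cardiomyocytes seldom divide, and the loss of MCL1 or of BCL-XL from the heart is known to harm it.

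The stretch of 250 bases before the transcription start is shown for 4 members, from RefSeq (GRCm38.p6), 5′ to 3′ on the gene's strand. Mcl1 (chr3:95658471-95658720, plus strand), Bcl2l1 (chr2:152831729-152831978, minus strand, the first of 3 starts) and Bak1 (chr17:27028628-27028877, minus strand) are shown because they passed the test between CDDP and Saline hearts. Of these calls only that of Mcl1 held in all settings given below. The Bak1 window lies inside the span of the gene in GENCODE M21 (chr17:27019810-27029009), so it precedes the RefSeq start and not that span. Bcl2l11 (chr2:128125788-128126037, plus strand, the first of 2 starts) is shown because it alone held a searched motif, in capitals.
Mcl1: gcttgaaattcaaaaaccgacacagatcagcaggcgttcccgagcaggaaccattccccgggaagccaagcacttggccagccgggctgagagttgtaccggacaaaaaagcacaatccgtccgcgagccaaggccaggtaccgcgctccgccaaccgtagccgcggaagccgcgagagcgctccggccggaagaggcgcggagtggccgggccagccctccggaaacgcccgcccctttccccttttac
Bcl2l1: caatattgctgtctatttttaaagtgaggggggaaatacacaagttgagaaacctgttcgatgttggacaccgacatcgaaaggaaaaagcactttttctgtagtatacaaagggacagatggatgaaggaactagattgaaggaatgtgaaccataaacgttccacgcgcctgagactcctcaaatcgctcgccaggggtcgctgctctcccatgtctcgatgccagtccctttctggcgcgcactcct
Bak1: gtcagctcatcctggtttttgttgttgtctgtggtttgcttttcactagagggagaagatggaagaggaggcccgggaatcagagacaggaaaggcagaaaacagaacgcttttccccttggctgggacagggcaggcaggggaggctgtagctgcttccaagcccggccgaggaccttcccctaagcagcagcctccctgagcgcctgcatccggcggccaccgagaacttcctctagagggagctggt
Bcl2l11: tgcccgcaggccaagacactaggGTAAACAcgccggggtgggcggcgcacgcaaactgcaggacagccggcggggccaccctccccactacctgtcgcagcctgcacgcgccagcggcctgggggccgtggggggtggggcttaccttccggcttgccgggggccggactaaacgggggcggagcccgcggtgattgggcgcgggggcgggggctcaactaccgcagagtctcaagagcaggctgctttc
The promoters differed in base composition. G+C made up 64.4% of the Mcl1 stretch, 47.6% of the Bcl2l1 stretch, 58.4% of the Bak1 stretch and 72.0% of the Bcl2l11 stretch, against a median of 52.4% over 32851 RefSeq promoters. The CG dinucleotide occurred 26, 12, 8 and 24 times, respectively.

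Pmaip1 had no promoter in the RefSeq set and was not searched. Motifs of 7 factors that act in stress or survival were searched on both strands of the 250 bases in the promoters of 7 members. They were AP-1 (TGANTCA, in 6.75% of all promoters), the cAMP response element (TGACGTCA, 1.55%), the ATF4-CEBP composite (TGATGNAA, 3.45%), FOXO (GTAAACA, 3.17%), STAT (TTCNNNGAA, 7.02%), the E-box (CACGTG, 6.02%) and the p53 response element (0.0639%). The FOXO letters were found in Bcl2l11, from base -227 to base -221 before the start, and no other match was found in these windows. A match is a description of the letters and not a site of binding, and a window without a match says nothing of the factor.

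Cisplatin in wild-type hearts came with more Bcl2l1 and Mcl1 RNA and with less Bak1 RNA, and of these calls only that of Mcl1 held in all settings. Pmaip1 RNA was also higher, with a limit set by the filter that is given below. Tests were made with limma on log2(TPM + 1) over all 12 hearts, for 13815 genes with at least 1 TPM in at least 3 hearts, with Benjamini-Hochberg adjustment and a threshold of 0.05 on the adjusted p. All 8 members passed this filter. Of them, 4 passed the test between CDDP and Saline, 3 higher and 1 lower, against 18.9% of all tested genes (8.52% higher and 10.4% lower). The same 4 members had groups that did not overlap, against 32.0% of tested genes. Pmaip1 entered the filter only through hearts given cisplatin, so its difference was built into its entry and is left out of the reading of that count, which is then 3 of 7. The members were chosen with earlier results of these data known, so these counts are a description and no test of the set. RNA of whole hearts was measured, so fewer cells of a type and less RNA per cell cannot be told apart.

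**Figure D1:**
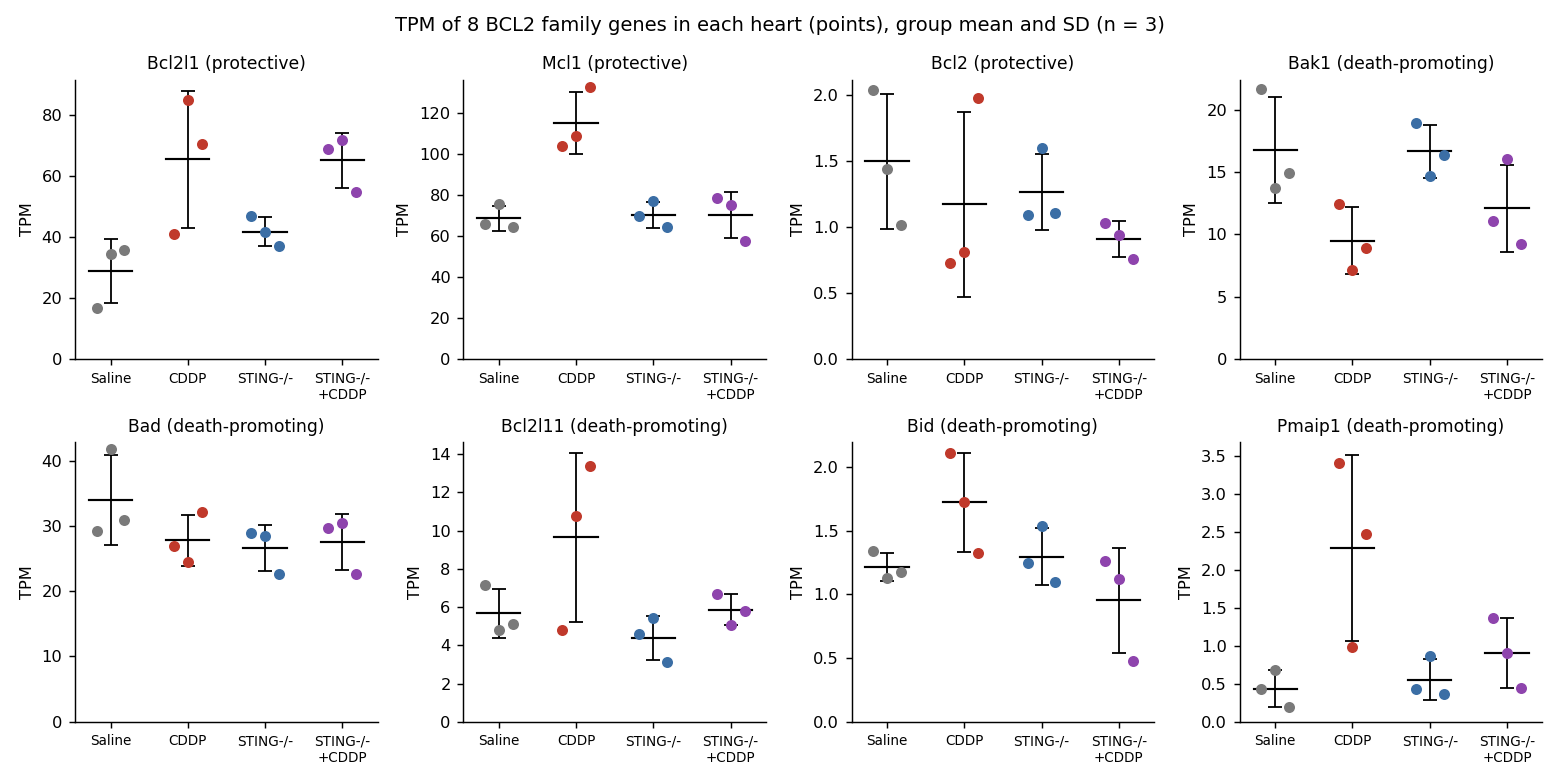
TPM of each of the 8 genes (vertical axis, linear, from 0) in each of the 12 hearts by group (points, replicates 1 to 3 from left to right), with the group mean (horizontal line) and SD (bar). Mcl1 sat between 103.85 and 132.45 TPM in the CDDP hearts and between 57.44 and 78.49 TPM in the other 9 hearts.

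Mcl1 (ENSMUSG00000038612, chr3:95658788-95663176, plus strand, GRCm38) encodes a protective protein of short half-life and was the most abundant member in all 12 hearts. Saline hearts held 65.78, 75.75 and 64.31 TPM of it, against 103.85, 108.92 and 132.45 TPM in the CDDP hearts. Every CDDP heart exceeded every Saline heart, by at least 28.1 TPM. The means were 68.6 ± 6.22 and 115 ± 15.3 TPM (SD, n = 3), and the log2 fold change was 0.73 (SE 0.15, adjusted p = 0.00817, limma). Mcl1 passed the test in all 11 alternative settings of the analysis and with each of the 6 Saline and CDDP hearts left out in turn (adjusted p = 0.00977 to 0.0365). Without CDDP heart 1, the heart with the high neutrophil markers, the log2 fold change was 0.80.

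Bcl2l1 (ENSMUSG00000007659, chr2:152780668-152831728, minus strand, GRCm38), the source of BCL-XL, was second in abundance among the members in most hearts. Its level was 16.64, 34.33 and 35.62 TPM in Saline hearts, against 40.89, 85.02 and 70.66 TPM in the CDDP hearts. The groups did not overlap, although Saline heart 1 was well below its group and CDDP heart 1 lay only 5.27 TPM above the highest Saline heart. The log2 fold change was 1.17 (SE 0.30, adjusted p = 0.0216, limma), with means of 28.9 ± 10.6 and 65.5 ± 22.5 TPM (SD, n = 3). The call was lost without Saline heart 1 (0.82, adjusted p = 0.0780), CDDP heart 2 (0.95, 0.0664) or CDDP heart 3 (1.08, 0.0619), with no filter on low values (0.0540) and with only the 6 compared hearts in the fit (0.102). Bcl2l1 has several transcripts, including forms of opposite effect on survival, and the gene's TPM does not separate them.

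Bcl2 (ENSMUSG00000057329, chr1:106538178-106714274, minus strand, GRCm38), the founding protective gene of the family, was close to the filter. Its level was 2.04, 1.44 and 1.02 TPM in Saline hearts, compared with 0.73, 0.81 and 1.98 TPM in the CDDP hearts, so the groups overlapped. D630008O14Rik overlaps the gene on the other strand. The log2 fold change was -0.23 (SE 0.24, 95% interval -0.75 to 0.30, adjusted p = 0.545). Bcl2 made up 1.01% to 2.42% of the summed protective TPM in Saline hearts, and Mcl1 made up 63.7% to 77.9%.

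Bak1 (ENSMUSG00000057789, chr17:27019810-27029009, minus strand, GRCm38), a pore former that sits in the outer membrane, was lower after cisplatin. Levels of 21.65, 13.74 and 14.91 TPM in Saline hearts stood against 12.44, 7.14 and 8.92 TPM in the CDDP hearts. The groups did not overlap, with 1.3 TPM between the lowest Saline heart and the highest CDDP heart. The log2 fold change was -0.76 (SE 0.24, adjusted p = 0.0488, limma), just inside the threshold. It passed in 4 of 11 alternative settings (adjusted p = 0.0161 to 0.119) and was lost without Saline heart 1 (0.180), Saline heart 3 (0.0786), CDDP heart 2 (0.140) or CDDP heart 3 (0.104). Ggnbp1 overlaps Bak1 on the other strand, and whether reads were counted by strand is not given in the sources used here.

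Markers of several other cell types fell where Bak1 fell, and those of others did not. The cardiomyocyte markers had a median log2 fold change of -0.35, with 1 of 6 higher and 1 lower by limma. Their sums, 30310 to 40320 TPM in Saline and 21570 to 33130 TPM in CDDP hearts, overlapped. Among the other lists, the median log2 fold change was 2.87 for the neutrophil, 0.68 for the fat and 3.03 for the atrial markers. By limma, 1 of 4 tested fat markers was higher, and 0 of the neutrophil and atrial markers passed. The macrophage markers summed to 92.2 to 142 TPM in Saline and 29.4 to 59.0 TPM in CDDP hearts, with 3 of 5 lower by the same test. The endothelial markers summed to 439 to 499 and 286 to 381 TPM (3 of 5 lower). The erythroid markers summed to 4146 to 9317 and 41.95 to 1271 TPM (5 of 5 lower). Of the fibroblast markers 3 of 5 were lower, with a median log2 fold change of -1.94, while their sum, 774 to 1832 in Saline and 964 to 2051 TPM in CDDP hearts, overlapped. The T cell sums were 3.26 to 7.78 and 0.97 to 1.66 TPM, the B cell sums 0.74 to 2.74 and 0.07 to 0.35 TPM and the skeletal muscle sums 972 to 1331 and 675 to 866 TPM, again without overlap. In these 2 groups no marker of these lists was at 0 in every heart of a group. Not all markers passed the filter: 4 of 6 neutrophil, 2 of 5 T cell, 0 of 4 B cell and 1 of 5 skeletal muscle markers did. The T cell and B cell sums therefore rest largely or wholly on genes too low to be tested. In STING-/-+CDDP hearts Myh1, Myh2 and Myh4 were at 0 throughout, while the skeletal muscle sum was 912 to 1262 TPM. That sum therefore does not stand for skeletal muscle cells alone. The part of these cells in the change of Bak1 or of any other member was not tested.

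Pmaip1 (ENSMUSG00000024521), the source of NOXA, a BH3-only protein that binds MCL1, was the least abundant member in Saline hearts. Saline hearts held 0.43, 0.68 and 0.2 TPM of it, and the values were 3.41, 0.98 and 2.48 TPM in the CDDP hearts. All CDDP hearts were above all Saline hearts, with CDDP heart 2 only 0.3 TPM above the highest of them. The ratio of the means was 5.24, while the fitted log2 fold change was 1.13 (SE 0.30, adjusted p = 0.0237, limma), since adding 1 TPM shrinks the difference of so low a gene. With 0.1 TPM added instead, it was 2.10 (adjusted p = 0.0293). Pmaip1 reached 1 TPM only in hearts given cisplatin, so its difference was built into its entry and the call lends it no support. The call was lost without Saline heart 1 (0.0677) or Saline heart 3 (0.0762), with no filter (0.0504) and with the 6 compared hearts alone (0.0863), and without CDDP heart 1 or CDDP heart 3 the gene fell below the filter and had no test.

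Bcl2l11 (ENSMUSG00000027381, chr2:128126038-128162547, plus strand, GRCm38), the source of the activator BIM, stood at 7.15, 4.78 and 5.1 TPM in Saline hearts, against 4.78, 10.78 and 13.39 TPM in the CDDP hearts. CDDP hearts 2 and 3 were above every Saline heart and CDDP heart 1 was level with the lowest. It had a log2 fold change of 0.59 (SE 0.31, 95% interval -0.08 to 1.26, adjusted p = 0.199). Without CDDP heart 1 it was 0.98 (adjusted p = 0.0195, limma), the only one of the 11 alternative settings and 6 left-out hearts in which the gene passed.

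Bid and Bad did not pass. Bid (ENSMUSG00000004446), which caspase-8 cleaves to link death receptors to mitochondria, stood at 1.34, 1.13 and 1.18 TPM in Saline hearts, against 2.11, 1.73 and 1.33 TPM in the CDDP hearts, and CDDP heart 3 fell just short of Saline heart 1. Its log2 fold change was 0.29 (SE 0.20, adjusted p = 0.343). Bad (ENSMUSG00000024959), a sensitizer whose protein is silenced by phosphorylation, was the most abundant death-promoting member in every heart, at 29.22, 41.85 and 30.92 TPM in the Saline and 26.86, 24.43 and 32.15 TPM in the CDDP hearts. For Bad it was -0.27 (SE 0.18, adjusted p = 0.326). Bid overlaps Bcl2l13 and Bad overlaps Gpr137, each on the other strand.

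**Figure D2:**
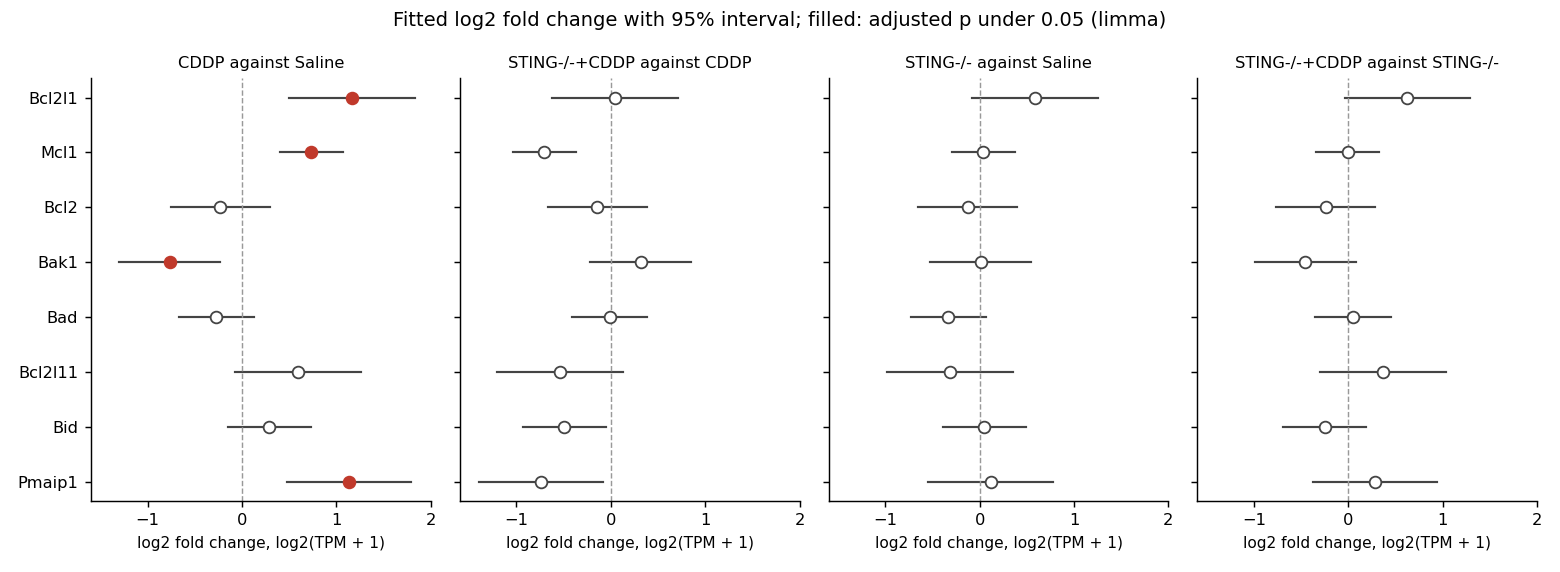
Fitted log2 fold change of each of the 8 genes on the log2(TPM + 1) scale (horizontal axis) with its 95% interval in 4 comparisons of 3 hearts with 3 hearts, and filled red points where the adjusted p was under 0.05. The filled points are all in the comparison of CDDP with Saline, for Bcl2l1 (1.17), Mcl1 (0.73), Bak1 (-0.76) and Pmaip1 (1.13). Pmaip1 entered the filter only through hearts given cisplatin, so its call was built into its entry.

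Between STING-/-+CDDP and CDDP hearts, 0 of 8 members passed the test, against 1.22% of tested genes. Mcl1 missed it narrowly. At an unadjusted p under 0.05 there were 3 members, Mcl1, Bid and Pmaip1, all lower in STING-/-+CDDP, against 19.8% of tested genes. Pmaip1 reached 1 TPM only in 2 CDDP hearts and 1 STING-/-+CDDP heart, so its difference was in part built into its entry. It is left out of the reading of that count. The median of all tested genes was itself shifted, by -0.09 on the log2 scale, and became 0.00 with hearts rescaled by the median of ratios. The calls over all tested genes were 50 higher and 118 lower, and the same rescaling gave 275 higher of 651 called.

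Mcl1 was at 78.49, 75.03 and 57.44 TPM in the STING-/-+CDDP hearts, every one below the lowest CDDP heart. These values lay within or near the range of the hearts without cisplatin of both genotypes (64.31 to 76.92 TPM). Against CDDP it had a log2 fold change of -0.71 (SE 0.15, 95% interval -1.04 to -0.37, adjusted p = 0.0512, limma). It passed in 5 of 11 alternative settings, with adjusted p-values of 0.0433 (at least 5 TPM), 0.0121 (median of ratios), 0.0366 (without mitochondrially encoded genes), 0.0163 (quantile normalization) and 0.0306 (atrial markers as a covariate), and in 0 of 6 fits with 1 heart left out (0.0523 to 0.170).

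Bid was at 1.26, 1.12 and 0.48 TPM in the STING-/-+CDDP hearts, below every CDDP heart (lowest 1.33 TPM). Its log2 fold change was -0.49 (SE 0.20, adjusted p = 0.204). Pmaip1 was at 1.37, 0.91 and 0.44 TPM, and STING-/-+CDDP heart 1 overlapped the CDDP range. For it the log2 fold change was -0.74 (SE 0.30, adjusted p = 0.204), a difference in part built into its entry. Mcl1 and Bid were 2 of 8 members whose groups did not overlap, against 22.7% of tested genes.

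Bcl2l1 was at 69.01, 71.68 and 54.8 TPM in the STING-/-+CDDP hearts, inside the CDDP range. Its log2 fold change against CDDP was 0.05 (SE 0.30, 95% interval -0.62 to 0.71, adjusted p = 0.956), an interval too wide to call the groups alike. Bak1 was at 11.03, 16.0 and 9.23 TPM (log2 fold change 0.32, SE 0.24, adjusted p = 0.508). Bcl2l11 was at 6.69, 5.06 and 5.81 TPM (-0.54, SE 0.31, adjusted p = 0.351), Bad at 29.7, 30.45 and 22.65 TPM (-0.01, SE 0.18, adjusted p = 0.977) and Bcl2 at 1.03, 0.94 and 0.76 TPM (-0.14, SE 0.24, adjusted p = 0.788). The groups overlapped for all 5 of these genes.

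Without cisplatin, 0 of 8 members passed between STING-/- and Saline hearts by limma, against 0.0724% of tested genes, and 0 had an unadjusted p under 0.05, against 3.69%. Mcl1 was at 69.89, 76.92 and 64.31 TPM in the STING-/- hearts, with a log2 fold change of 0.04 (95% interval -0.30 to 0.37). Bcl2l1 was at 46.79, 41.56 and 37.08 TPM, all above the Saline hearts, and its log2 fold change was 0.59 (SE 0.30, unadjusted p = 0.0776, adjusted p = 1.0). Bad was at 28.87, 28.47 and 22.62 TPM, all below the Saline hearts (-0.33, SE 0.18, adjusted p = 1.0). These 2 of 8 members had groups that did not overlap, against 7.64% of tested genes. Bak1 was at 18.92, 14.68 and 16.34 TPM, Bcl2l11 at 4.6, 5.42 and 3.12 TPM, Bcl2 at 1.09, 1.6 and 1.11 TPM, Bid at 1.25, 1.54 and 1.1 TPM and Pmaip1 at 0.43, 0.87 and 0.37 TPM, and each overlapped the Saline range.

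Within the STING-/- genotype, 0 of 8 members passed between hearts with and without cisplatin by limma, against 0.934% of tested genes, and 0 had an unadjusted p under 0.05, against 13.5%. The median of all tested genes was shifted by -0.11 and became 0.01 with the median of ratios, where 128 of 251 called genes were higher instead of 35 of 129. Bcl2l1 was higher in all 3 STING-/-+CDDP hearts than in any STING-/- heart, with a log2 fold change of 0.62 (SE 0.30, 95% interval -0.04 to 1.29, adjusted p = 0.400). Mcl1 had a log2 fold change of -0.01 (95% interval -0.34 to 0.32), Bak1 of -0.46 (SE 0.24, adjusted p = 0.450) and Pmaip1 of 0.28 (SE 0.30, adjusted p = 0.740). Bcl2 was lower in all 3 STING-/-+CDDP hearts (-0.24, adjusted p = 0.712). Bcl2 and Bcl2l1 were the 2 of 8 members whose groups did not overlap, against 24.2% of tested genes.

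Whether cisplatin changed a member differently in the 2 genotypes was tested as the interaction in the same model. By limma, 0 of 8 members passed, against 0.00724% of tested genes, and 1 of 8 had an unadjusted p under 0.05, against 11.7%. That member was Mcl1, with a difference of -0.74 between the log2 fold changes in STING-/- and wild-type hearts (SE 0.22, 95% interval -1.22 to -0.27, unadjusted p = 0.00511, adjusted p = 0.321). The difference was -0.54 (SE 0.43) for Bcl2l1, 0.31 (SE 0.35) for Bak1 and -0.86 (SE 0.43) for Pmaip1, with adjusted p-values of 0.645, 0.760 and 0.461. So a change that passed in wild-type hearts and missed the threshold in STING-/- hearts was not shown to differ between genotypes for any member. The 5 comparisons draw on the same 4 groups and are not independent of each other.

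The balance between the sides was summed per heart, as a description with no test. The summed TPM of Bcl2l1, Mcl1 and Bcl2 was 84.46, 111.52 and 100.95 in Saline hearts, 145.47, 194.75 and 205.09 in CDDP hearts, 117.77, 120.08 and 102.5 in STING-/- hearts and 148.53, 147.65 and 113.0 in STING-/-+CDDP hearts. No CDDP heart was as low as any heart without the drug. The summed TPM of Bak1, Bad, Bcl2l11, Bid and Pmaip1 moved less, at 52.3 to 62.2 in Saline, 45.1 to 58.3 in CDDP, 43.6 to 54.1 in STING-/- and 38.6 to 53.5 in STING-/-+CDDP hearts. The ratio of protective to death-promoting TPM was 1.71 ± 0.268 in Saline, 3.59 ± 0.697 in CDDP, 2.30 ± 0.102 in STING-/- and 2.88 ± 0.111 in STING-/-+CDDP hearts (SD, n = 3). In order of the mean ratio, Saline, STING-/-, STING-/-+CDDP and CDDP, neighbouring groups did not overlap except the last pair, in which CDDP heart 1 (2.93) lay within the STING-/-+CDDP range of 2.76 to 2.97. Both the order and the size of the difference depended on the way of summing, in which Mcl1, Bcl2l1 and Bad weigh most. With geometric means of the same members the ratio was 3.27 in Saline, 3.38 in CDDP, 3.71 in STING-/- and 3.803 in STING-/-+CDDP hearts, so CDDP was close to Saline and below both STING-/- groups. Without Mcl1 and Bad the ratio of the sums was 1.36, 2.92, 1.88 and 3.36 in the same order of groups, and STING-/-+CDDP was then above CDDP.

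**Figure D3:**
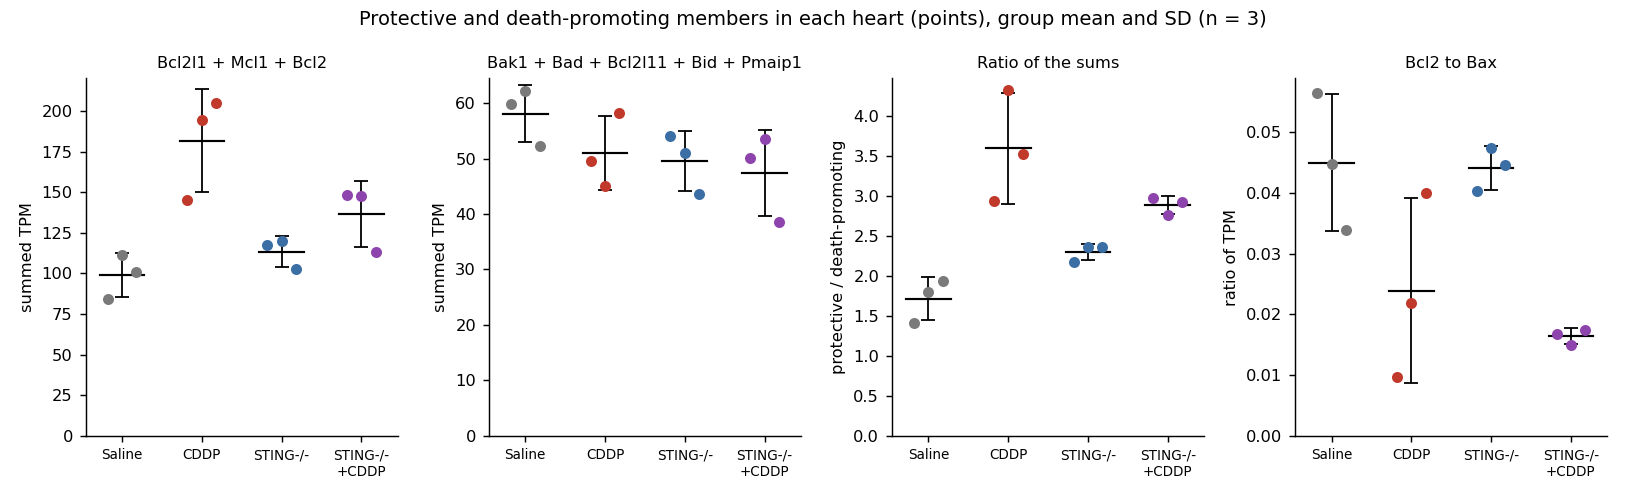
Summed TPM of the 3 protective genes and of the 5 death-promoting genes, the ratio of these sums and the ratio of Bcl2 to Bax TPM (vertical axes, linear, from 0) in each heart (points) of the 4 groups, with the mean (line) and SD (bar, n = 3). The ratio of the sums ran from 1.41 to 1.93 in Saline and from 2.93 to 4.32 in CDDP hearts, while the ratio of Bcl2 to Bax ran from 0.0339 to 0.0565 and from 0.00973 to 0.0401.

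The makeup of the protective sum differed between the cisplatin groups. Mcl1 gave 64.0% ± 7.75 and Bcl2l1 35.4% ± 7.82 of it in CDDP hearts, against 51.5% ± 1.16 and 47.8% ± 1.19 in STING-/-+CDDP hearts (SD, n = 3). The ranges of the Mcl1 share, 55.9% to 71.4% and 50.8% to 52.8%, did not overlap. Without cisplatin the mean Mcl1 share was also lower in STING-/- hearts, at 62.1% against 69.8% in Saline hearts. The ranges there, 59.3% to 64.1% and 63.7% to 77.9%, overlapped.

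Bax (ENSMUSG00000003873), the pore former that moves from the cytosol to mitochondria, is no member of the set but the other executioner beside Bak1. It was at 36.1, 32.19 and 30.11 TPM in Saline, 75.0, 36.96 and 49.43 TPM in CDDP, 27.0, 33.71 and 24.87 TPM in STING-/- and 61.39, 62.81 and 43.55 TPM in STING-/-+CDDP hearts. All 6 hearts with cisplatin were above the 6 without it. Neither comparison passed: the log2 fold change was 0.64 (SE 0.24, adjusted p = 0.0808) in wild-type and 0.94 (SE 0.24, adjusted p = 0.0974) in STING-/- hearts, and the interaction was 0.30 (adjusted p = 0.760). The wild-type comparison passed in 0 of 11 alternative settings. It passed in 1 of 6 fits with a heart left out, that without CDDP heart 2 (adjusted p = 0.0250, limma). The STING-/- comparison passed in 1 of 11 alternative settings, that with array weights (adjusted p = 0.00751), and in 0 of 6 fits with a heart left out.

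With Bax added to the death-promoting sum, the ratio of the sums was 1.10 ± 0.188 in Saline, 1.82 ± 0.608 in CDDP, 1.46 ± 0.0401 in STING-/- and 1.33 ± 0.0534 in STING-/-+CDDP hearts. CDDP heart 1, at 1.17, then lay inside the Saline range of 0.881 to 1.23. Between the STING-/- groups the order of the means turned around. The ratio of Bcl2 to Bax, a measure of apoptotic readiness in common use, was 0.0450 ± 0.0113 in Saline, 0.0239 ± 0.0153 in CDDP, 0.0442 ± 0.00357 in STING-/- and 0.0164 ± 0.00128 in STING-/-+CDDP hearts (SD, n = 3). The ratio of the sums without Bax was higher, and that of Bcl2 to Bax lower, in the means of both cisplatin groups than in their controls. Bcl2 gave at most 2.42% of the protective sum in the first of these ratios and is the numerator of the second.

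Other genes of the apoptosis machinery were taken from a list of 63, of which 58 passed the filter. Between CDDP and Saline, 10 of the 58 passed the test, 7 higher and 3 lower, which is 17.2% against 18.9% of all tested genes. Birc5, 1 of the 3 lower genes, entered the filter only through Saline hearts, and without it the count was 9 of 57 (15.8%). The median log2 fold change was -0.01 over the list and -0.0032 over all tested genes. The share called and the median of the list were thus near those of all genes. The roles held 2 to 9 tested genes each, so a count by role below is a description and no result about that role.

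**Figure D4:**
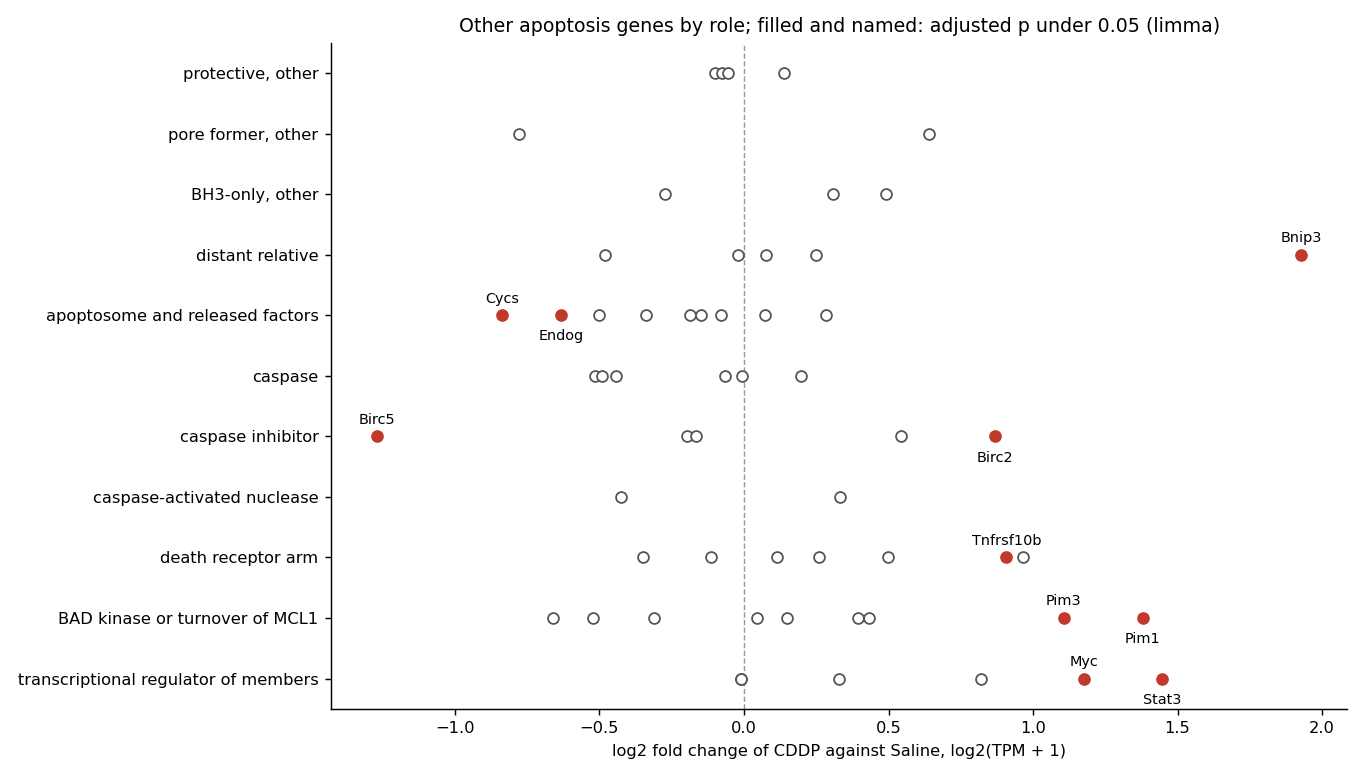
Log2 fold change of CDDP against Saline on the log2(TPM + 1) scale (horizontal axis) for 58 other apoptosis genes, 1 point per gene in 11 rows by role, with filled red points and names where the adjusted p was under 0.05. Bnip3 was farthest to the right, at 1.93, and Birc5 farthest to the left, at -1.27.

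Among the relatives of the members, none of the 4 other protective genes (Bcl2l2 and 3 Bcl2a1 copies), the 2 other pore formers (Bax and Bok) or the 3 other BH3-only genes (Bbc3, Bmf and Bik) passed. The Bcl2a1 copies are near-identical, and their counts are uncertain. Bbc3, the source of PUMA, was at 3.49 to 5.24 TPM in Saline and 3.4 to 9.14 TPM in CDDP hearts (log2 fold change 0.49, adjusted p = 0.317). Of 5 distant relatives 1 passed, Bnip3, a protein of the outer membrane that takes part in mitophagy and cell death under low oxygen. Bnip3 stood at 95.39, 146.84 and 175.98 TPM in Saline hearts, against 315.86, 788.78 and 553.79 TPM in the CDDP hearts. Its log2 fold change of 1.93 (SE 0.31, adjusted p = 0.00248) was called in all 11 alternative settings and all 6 fits with a heart left out.

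In STING-/-+CDDP hearts Bnip3 was at 485.2, 402.06 and 567.49 TPM, against 180.71, 213.24 and 149.3 TPM in STING-/- hearts (log2 fold change 1.42, SE 0.31, adjusted p = 0.0614). It passed there in 4 of 11 alternative settings (adjusted p = 0.0121 to 0.136) and in 0 of 6 fits with a heart left out.

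Downstream of the pore, 2 of 9 genes of the apoptosome and of factors released from mitochondria passed, against 18.9% of all tested genes. Both were lower after cisplatin. Cycs, the gene of cytochrome c, which also carries electrons in the respiratory chain, stood at 193.47, 182.54 and 206.28 TPM in Saline hearts, against 94.44, 120.67 and 111.08 TPM in the CDDP hearts. Its log2 fold change was -0.84 (SE 0.12, adjusted p = 0.00139). Endog, a mitochondrial nuclease, fell by 0.63 on the log2 scale (SE 0.16, adjusted p = 0.0182), from 51.1 ± 8.40 to 32.4 ± 2.92 TPM (SD, n = 3). Its call was lost without Saline heart 1 (0.0534) or Saline heart 3 (0.0660) and with only the compared hearts in the fit (0.0801). In STING-/-+CDDP hearts Cycs was at 132.72, 131.35 and 127.46 TPM, below the 189.67, 169.8 and 191.31 TPM of STING-/- hearts (-0.49, SE 0.12, adjusted p = 0.0824). Endog was not lower there, at 50.12, 48.25 and 39.39 TPM against 38.96, 40.8 and 48.91 TPM (0.10, SE 0.16, adjusted p = 0.835, limma). Every STING-/-+CDDP heart was above every CDDP heart for Endog (0.49, adjusted p = 0.132), and its interaction was 0.73 (adjusted p = 0.322). None of 6 caspase genes and neither of the 2 genes of the caspase-activated nuclease passed.

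Of 5 caspase inhibitor genes, 1 rose and 1 fell, against 18.9% of all tested genes that passed. Birc2, the gene of cIAP1, was at 8.08, 11.12 and 8.41 TPM in the Saline and 18.99, 14.61 and 19.26 TPM in the CDDP hearts (log2 fold change 0.87, SE 0.19, adjusted p = 0.00960), a call lost with only the compared hearts in the fit (0.0514). Birc5, the gene of survivin, which works in dividing cells, was at 2.82, 1.13 and 1.91 TPM in the Saline and 0.18, 0.26 and 0.14 TPM in the CDDP hearts (-1.27, SE 0.23, adjusted p = 0.00438). Birc5 passed the filter only through the 3 Saline hearts, so its difference was built into its entry. It was also low in the STING-/- hearts without cisplatin, at 0.56, 0.35 and 0.15 TPM (-1.10, adjusted p = 0.214).

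In the death receptor arm, 1 of 7 genes passed, against 18.9% of all tested genes. Tnfrsf10b, the mouse TRAIL receptor, rose from 1.56 ± 0.148 to 4.01 ± 1.81 TPM (SD, n = 3), with a log2 fold change of 0.91 (SE 0.24, adjusted p = 0.0239, limma). It was highest in CDDP heart 1 (5.97 TPM), and its call was lost without that heart (0.0655) or Saline heart 1 (0.0777), with no filter (0.0595) and with only the compared hearts in the fit (0.102).

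Of 9 genes that phosphorylate BAD or govern the turnover of MCL1, 2 passed, against 18.9% of all tested genes. Both were PIM kinases and rose. Pim1 stood at 13.54, 13.69 and 11.62 TPM in Saline hearts, against 47.77, 24.83 and 36.7 TPM in the CDDP hearts (log2 fold change 1.38, SE 0.22, adjusted p = 0.00218). Pim3 was at 59.67, 86.33 and 78.2 TPM and at 129.35, 178.15 and 178.06 TPM (1.11, SE 0.17, adjusted p = 0.00181). For both genes all CDDP hearts were above all Saline hearts. Fbxw7 and Huwe1, whose ligases mark MCL1 for degradation, and Usp9x, which removes that mark, had log2 fold changes of -0.66, 0.04 and 0.43 with adjusted p-values of 0.109, 0.886 and 0.146.

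Among 6 transcription factor genes that are known to act on members, 2 passed, both higher, against 18.9% of all tested genes. Stat3 was at 38.02, 48.35 and 28.96 TPM in the Saline and 168.84, 72.36 and 92.65 TPM in the CDDP hearts (log2 fold change 1.45, SE 0.29, adjusted p = 0.00674). Myc was at 2.23, 3.46 and 2.35 TPM and at 8.1, 5.82 and 7.96 TPM (1.18, SE 0.22, adjusted p = 0.00497). Trp53, Foxo1, Foxo3 and Ddit3 did not pass, with log2 fold changes of -0.01, -0.01, 0.82 and 0.33. CDDP heart 1, with the high neutrophil markers, had the highest Stat3, Pim1 and Tnfrsf10b values. The part of neutrophils was not tested, while Stat3 and Pim1 passed without that heart as well.

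Between STING-/-+CDDP and CDDP, 1 of the 58 list genes passed, against 1.22% of tested genes, and the median of the list was -0.13 against -0.09 for all genes. It was Pim1, at 14.44, 13.29 and 12.1 TPM in the STING-/-+CDDP hearts, each below the lowest CDDP heart (24.83 TPM). It fell by 1.35 on the log2 scale (SE 0.22, adjusted p = 0.0216, limma), and the call was lost without CDDP heart 3 (0.0617) or STING-/-+CDDP heart 1 (0.0526), 2 (0.0892) or 3 (0.0945), with no filter (0.0571) and with only the compared hearts in the fit (0.0895). Stat3 was at 52.47, 50.73 and 44.07 TPM, also below every CDDP heart, and missed the threshold (-1.08, SE 0.29, adjusted p = 0.0859). In the other 2 group comparisons and the interaction, 0 of the 58 genes passed by limma, with 5, 11 and 8 genes at an unadjusted p under 0.05, against 3.69%, 13.5% and 11.7% of all tested genes.

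The genes whose pattern over the 12 hearts was most like that of each called member were taken by Pearson's r of log2(TPM + 1), as a description. They share the hearts, groups and library scaling with the member. For Mcl1 they were Gatad2b (r = 0.971), Ddx23 (0.970) and Dhx15 (0.970). For Bcl2l1 they were Amy1 (0.958), Tcf23 (0.942) and Syn2 (0.940). Bak1 was most like Smoc2 (0.956), Col4a1 (0.920) and Rab8b (0.913), and Pmaip1 most like Foxp1 (0.990), Itgb3 (0.983) and Lgalsl (0.980).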

How the data were processed

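Total RNA of 12 mouse hearts was sequenced, and the authors deposited a table of TPM values per gene; their processing notes name fastp, HISAT, RSEM and the build GRCm38.p5, with no versions of the tools. TPM sums to the same total in every heart, so the depth is unknown and no counting interval can be given. Groups and replicate numbers came from the labels. Values were log2-transformed after adding 1 TPM, and 13815 genes with at least 1 TPM in at least 3 hearts were fitted with limma 3.58.1 (R 4.3.3; lmFit, contrasts.fit, eBayes with a trend; 1 coefficient per group, 12 hearts, 8 residual degrees of freedom), two-sided, with Benjamini-Hochberg adjustment over all tested genes and a threshold of 0.05. Exact permutation of 3 against 3 samples reaches no p under 0.1 and was not used for calls. The procedure was tested on simulated data. Gene positions came from GENCODE M21 and promoters from RefSeq.

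The members and lists were chosen with earlier results of these data known. Named were the 8 members, Bax, the list genes that passed in any comparison of groups (at most 15 per comparison) and the 3 genes most like each called member. Other genes with values (Bbc3, Fbxw7, Huwe1, Usp9x and the transcription factor genes) were added after their values were seen. A further gene is not reported here. The list genes Bcl2l10, Hrk, Bcl2l14, Bcl2l15 and Faslg did not pass the filter. Alternatives changed the added value, filter, hearts in the fit, scaling, variance prior, weights, an atrial covariate and a replicate block, and each heart was left out in turn.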

Additional observations from a re-analysis of the deposited data

How the results depend on the processing

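Under other settings and with single hearts left out, Mcl1 kept its call between CDDP and Saline, and the other 3 calls did not all hold. The count of 4 called members includes Pmaip1, whose call was built into its entry. It became 1 with no filter on low values and 1 with only the compared groups in the fit. With a heart left out it ran from 1 to 4 (1 without Saline heart 1 or CDDP heart 3, 2 without Saline heart 3 or CDDP heart 2). Between STING-/-+CDDP and CDDP the count of 0 became 1, Mcl1, with the atrial covariate, the median of ratios, quantile normalization, a filter of 5 TPM or without mitochondrially encoded genes. Signs turned for values near 0. In that comparison Bcl2l1 (0.05) was -0.0565 with array weights and -0.26 to 0.26 with a heart left out. Bad (-0.01) was 0.10 with the median of ratios, 0.0582 without mitochondrially encoded genes, 0.13 with quantile normalization, 0.12 with array weights and 0.0468 with the atrial covariate, and -0.10 to 0.12 with a heart left out, and Bcl2 was -0.28 to 0.11. Mcl1 between STING-/-+CDDP and STING-/- (-0.01) was 0.126, 0.0105, 0.0415, 0.0773 and 0.0651 under the same 5 settings in that order and -0.0949 to 0.127 with a heart left out. With geometric means, the ratio of protective to death-promoting TPM was 3.27 in Saline, 3.38 in CDDP, 3.71 in STING-/- and 3.803 in STING-/-+CDDP, and without the most abundant member of each side it was 1.36, 2.92, 1.88 and 3.36, so the order of the groups turned. The cause was not tested.

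No pairing by replicate number was seen: 4 of 18 same-numbered pairs had a correlation of deviations above 0.1, against 11 of 36 pairs of other numbers. Such a check cannot show that the hearts were handled without pairs or batches. With the replicate block, 3 members passed between CDDP and Saline by limma, Pmaip1 with its built-in call among them, and Bak1 was lost (adjusted p = 0.0516). Over all settings and hearts left out, the genes called numbered 822 to 3904 (2610 as reported) between CDDP and Saline, 11 to 671 (168) between STING-/-+CDDP and CDDP, 3 to 29 (10) between STING-/- and Saline, 18 to 613 (129) between STING-/-+CDDP and STING-/- and 0 to 12 (1) for the interaction. TPM holds no depth, so the counting error behind low values, such as those of Bcl2, Bid and Pmaip1, is unknown.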
